A study of Homo sapiens with 12 samples.

Results

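The 10 genes described here are members of the Krüppel-like factor (KLF) family of transcription factors: KLF3, KLF4, KLF5, KLF6, KLF7, KLF9, KLF10, KLF11, KLF13 and KLF16. They were chosen by being listed by name and having a row in a table of ribosome footprint counts that holds 13074 genes, and all 10 listed genes had one. The list was drawn up with earlier results of these data known, so the members' values and their p-values, taken from a fit across all genes, describe where they stood and support nothing further. The footprints came from 12 libraries of A375, an established human melanoma cell line, prepared by ribosome profiling, which sequences the short mRNA fragments that ribosomes protect from nuclease. The 4 groups of 3 libraries each were FTSJ1 knockout cells without selenite, FTSJ1 knockout cells with 30 nM sodium selenite, control cells without selenite and control cells with 30 nM sodium selenite. FTSJ1 is a tRNA 2'-O-methyltransferase, and per the series' description the study looked at selenoprotein translation when the methylated uridine of the wobble position of selenocysteine tRNA was lost. The genotype is written "FTS1 KO" in the labels, the control is called WT, and all knockout libraries carry the name of 1 line, KO1, so that line and genotype cannot be told apart. The labels do not state whether the replicates are separate cultures, and p-values therefore measure only the spread between these libraries, which may be technical.

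KLF proteins bind GC-rich and CACCC-type DNA elements through zinc fingers at their C-terminal end, which the family shares with the SP factors, while their N-terminal parts differ and recruit activators such as the acetyltransferases EP300 and KAT2B or repressors such as the SIN3A and CTBP complexes. They act in cell cycle control, differentiation and metabolism, and several are short-lived proteins that are induced quickly by growth factors, hormones or TGF-beta. A footprint count reflects both how much mRNA a cell holds and how densely ribosomes occupy it, and no mRNA libraries were analysed here, so these contributions cannot be told apart, nor can fewer cells that make a transcript be told from less of it per cell.

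The upstream sequences of the 3 genes with the widest range of group means, KLF5, KLF9 and KLF4, are shown because their footprints passed the test as lower in knockout cells without selenite, KLF4 less firmly than the others, and because KLF proteins themselves bind such elements. Each is the 250 bases before a RefSeq start site in GRCh38.p14, read 5′ to 3′ on the gene's strand, with CACCC or its reverse complement GGGTG in capitals. RefSeq gave KLF5, on the plus strand of chromosome 13, a start at the gene's edge with the window 13:73054726-73054975 and a start inside the gene with the window 13:73058755-73059004. KLF9 lies on the minus strand with the window 9:70414658-70414907, and KLF4 on the minus strand with the window 9:107489770-107490019.
KLF5, first start: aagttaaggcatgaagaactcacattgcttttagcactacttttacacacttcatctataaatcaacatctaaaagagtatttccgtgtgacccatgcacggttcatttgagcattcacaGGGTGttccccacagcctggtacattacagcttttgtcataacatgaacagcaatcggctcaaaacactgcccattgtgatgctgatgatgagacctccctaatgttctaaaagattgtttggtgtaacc
KLF5, second start: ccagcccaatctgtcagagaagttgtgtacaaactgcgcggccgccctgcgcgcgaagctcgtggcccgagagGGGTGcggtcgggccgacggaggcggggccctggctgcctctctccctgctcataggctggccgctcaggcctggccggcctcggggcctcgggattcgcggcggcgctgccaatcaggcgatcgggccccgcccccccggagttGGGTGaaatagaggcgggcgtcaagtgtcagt
KLF9: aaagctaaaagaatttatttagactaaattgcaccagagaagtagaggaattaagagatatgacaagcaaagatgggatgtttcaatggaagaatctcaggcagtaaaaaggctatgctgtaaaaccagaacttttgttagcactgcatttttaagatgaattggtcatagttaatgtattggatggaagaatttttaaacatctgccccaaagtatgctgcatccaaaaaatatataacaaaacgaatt
KLF4: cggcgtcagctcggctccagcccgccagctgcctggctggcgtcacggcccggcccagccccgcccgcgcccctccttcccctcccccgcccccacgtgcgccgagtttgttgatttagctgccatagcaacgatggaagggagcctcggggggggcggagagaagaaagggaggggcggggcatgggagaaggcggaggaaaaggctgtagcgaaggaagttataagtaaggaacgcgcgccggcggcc
The KLF5 window at the gene's edge held 1 CACCC element and no GC box (GGGCGG or its reverse complement CCGCCC), and the window inside the gene held 2 CACCC elements and 2 GC boxes. The KLF9 window held neither element, and the KLF4 window held no CACCC element and 4 GC boxes. On either strand, CACCC was found in 54.7% and GGGCGG in 42.6% of 35114 RefSeq windows of the same length. A match is a description of letters and not of a binding site. RefSeq windows were matched for 8 of the 10 members, 13 windows in all, and KLF3 and KLF10 had no entry.

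Library totals ran between 520989 and 1543627 counts, with a median of 1336000, and the replicates 2 and 3 of knockout cells with selenite were the shallowest, with 636920 and 520989 counts. Levels are given as CPM, a gene's count scaled to a common library size, where library sizes were adjusted by the trimmed mean of M-values (TMM). A gene with no count could have had up to 3 counts, which is between 1.97 and 5.99 CPM depending on the library. FTSJ1 itself stood at 0, 6.31 and 1.47 CPM in knockout libraries without selenite and at 3.95, 0 and 11.98 CPM in knockout libraries with it, against 54.7, 51.6 and 45.4 CPM in control libraries without selenite and 57.2, 72.2 and 53.6 CPM in control libraries with it. The groups did not overlap, and the log2 fold change of FTSJ1 was -4.41 ± 0.54 (SE, n = 3 each) without and -3.69 ± 0.53 with selenite (edgeR adjusted p = 4.97e-05 and 1.15e-04). Of 12 melanoma markers, 8 had a row, among them SOX10 at 221 to 545 CPM and MITF at 20.6 to 75.2 CPM. PMEL, MLANA, TYR and TYRP1, which mark pigmented cells, had none, and DCT stood at 0 to 6.04 CPM.

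Of the 10 members, 8 had enough counts to enter the test, together with 10467 genes in all. KLF7, with 47 counts over all libraries, and KLF13, with 61, did not. The level that the filter asks for, 7.49 CPM at the median library, was reached in all 12 libraries by KLF3, KLF5, KLF6, KLF9 and KLF10, in 10 by KLF4, in 6 by KLF16 and in 3 by KLF11. Of the 6 libraries in which KLF16 reached it, 5 were knockout libraries.

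**Figure D1:**
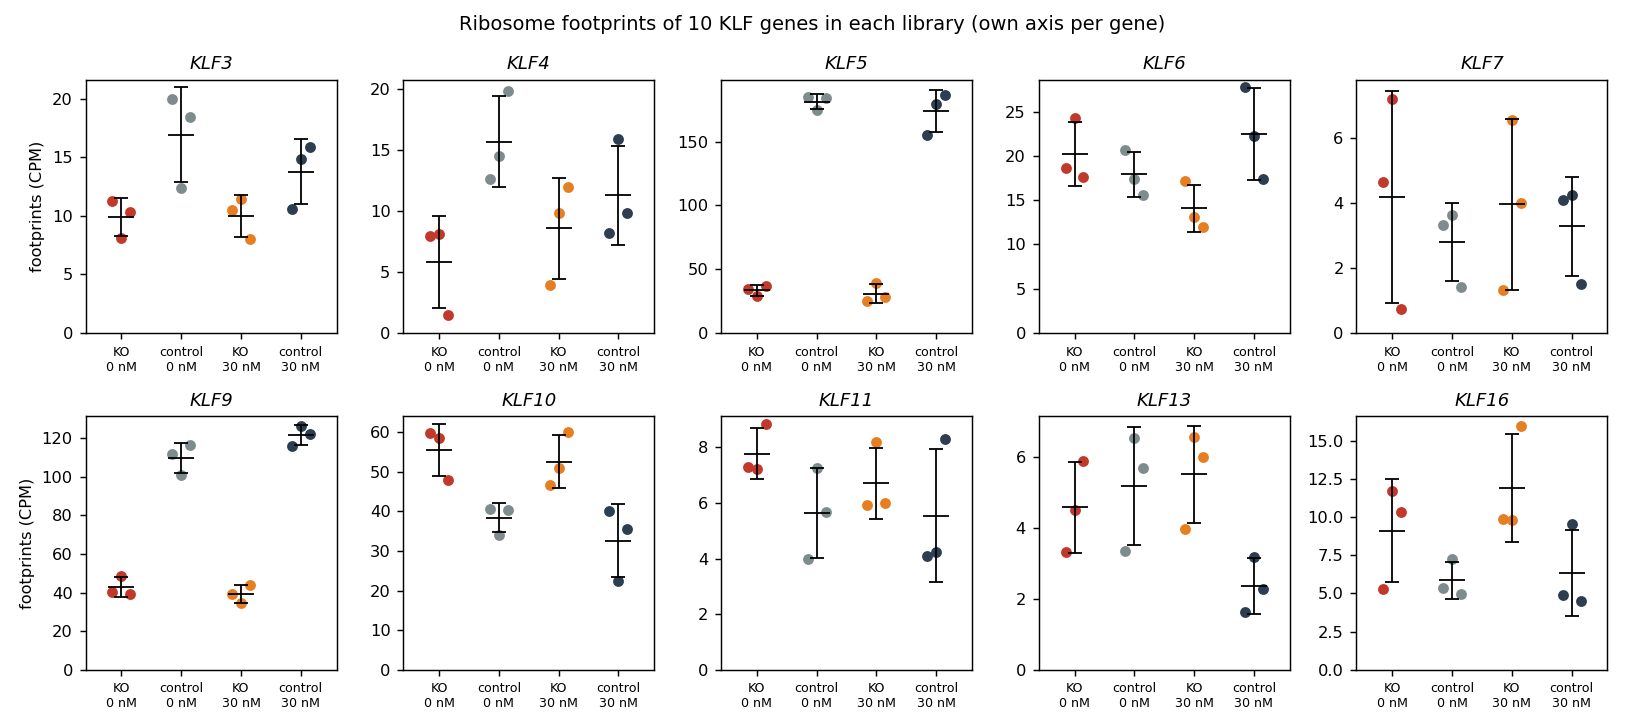
Footprints of each of the 10 KLF genes in CPM (vertical axes, 1 per gene, each from 0) in the 12 libraries, by group. Points are libraries, and bars are the mean and SD of 3 libraries. The 6 knockout libraries lie below the 6 control libraries for KLF5, where the highest knockout library had 39.3 CPM and the lowest control library 155 CPM, and for KLF9, where these were 48.7 and 101 CPM.

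Comparing knockout with control cells without selenite asks how footprints on these genes differ in the FTSJ1 knockout line. KLF5, KLF9 and KLF4 fell in knockout cells and KLF10 rose, so that 4 of the 8 tested members passed an adjusted p of 0.05. Over all genes tested 23.9% passed it, 11.8% higher and 12% lower. The count of 4 was 2 with DESeq2, with all libraries thinned to 1 depth, or without control replicate 3, and KLF5 and KLF9 were then the members called. With selenite, KLF5 and KLF9 fell and KLF10 rose, 3 of 8, against a background of 42.9% of all genes, 21.3% higher and 21.6% lower. The median log2 fold change of the tested members was -0.30 without and -0.50 with selenite, while the median of all genes was -0.00014 and -0.015. The comparisons without and with selenite use separate libraries.

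KLF5 is an activator of proliferation genes that is abundant in the dividing layers of epithelia. Its level was 34.5, 28.8 and 36.8 CPM in knockout cells without selenite, against 185, 175 and 184 CPM in control cells without selenite. In the presence of selenite it was 25.0, 39.3 and 27.9 CPM in knockout cells, against 155, 179 and 186 CPM in control cells. All knockout libraries were therefore low and all control libraries high, with a wide gap between them. Without selenite the means were 33.4 ± 4.1 CPM in knockout and 181 ± 5.5 CPM in control cells, and with selenite 30.8 ± 7.6 CPM in knockout and 174 ± 16 CPM in control cells (SD, n = 3 each). The fitted log2 fold change was -2.43 ± 0.15 (SE) without selenite, a level 5.39-fold lower in knockout cells, with a 95% interval of -2.72 to -2.13 (edgeR adjusted p = 2.92e-16). With selenite it was -2.55 ± 0.17, 5.87-fold lower, with an interval of -2.89 to -2.22 (edgeR adjusted p = 2.54e-15). KLF5 lies at 13:73054976-73077538 in GRCh38.p14. The tested genes within 1 Mb of it were MZT1, PIBF1, BORA, DIS3 and KLF12. Their median log2 fold change was -0.30 without selenite, where none of the 5 passed, and -0.94 with selenite, where 3 of the 5 fell. Of all genes tested, 23.9% passed without selenite and 21.6% fell with it.

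KLF9 is induced by glucocorticoid and thyroid hormones and represses transcription through SIN3A. It had 40.5, 48.7 and 39.0 CPM in knockout cells, against 112, 101 and 116 CPM in control cells, without selenite. With selenite it had 39.5, 34.4 and 43.9 CPM in knockout cells, against 116, 126 and 122 CPM in control cells. The highest knockout library was again below the lowest control library in both conditions. The log2 fold change was -1.37 ± 0.14 (SE, n = 3 each) without selenite, 2.58-fold lower in knockout cells, with a 95% interval of -1.65 to -1.09 (edgeR adjusted p = 5.18e-10). It was -1.63 ± 0.16 with selenite, 3.10-fold lower, with an interval of -1.95 to -1.31 (edgeR adjusted p = 8.87e-11). Of the 3 tested genes within 1 Mb of KLF9 (9:70384604-70414657), which are SMC5, PTAR1 and TRPM3, 1 fell in each comparison, and their median log2 fold change was -0.25 without and -0.65 with selenite.

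KLF4, one of the factors used to reprogram somatic cells to pluripotency and needed for the skin barrier in mouse, was sparsely counted. Without selenite it had 7.97, 8.11 and 1.47 CPM in knockout cells, against 12.7, 14.5 and 19.9 CPM in control cells. The groups did not overlap, and 1 knockout library, replicate 3, was far below the others and under the level of 3 counts. The log2 fold change was -1.42 ± 0.41 (SE, n = 3 each; edgeR adjusted p = 0.00961), without that knockout library it was -0.95 with an adjusted p of 0.101, and without control replicate 3 it was -1.21 with an adjusted p of 0.0646. With selenite KLF4 had 3.95, 9.84 and 11.98 CPM in knockout cells, against 8.17, 15.9 and 9.82 CPM in control cells, and these ranges overlapped. The log2 fold change there was -0.61 ± 0.48 (edgeR adjusted p = 0.315), with a 95% interval of -1.58 to 0.36. It was -1.44 without both shallow libraries, which left 1 knockout library with selenite. With the trend on gene density removed it was -0.29, and with 1 library left out it ran between -0.90 and -0.047. The difference between the knockout's effect with and without selenite was 0.81 ± 0.65 for KLF4 and did not pass (edgeR adjusted p = 0.453). KLF4 lies at 9:107484852-107489769, and neither of its 2 tested neighbours within 1 Mb passed the threshold in these comparisons.

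KLF10 and KLF11 were both described as genes induced early by TGF-beta, and their proteins recruit SIN3A to repress transcription. KLF10 had 59.8, 58.6 and 47.8 CPM in knockout cells, against 40.7, 34.1 and 40.4 CPM in control cells, without selenite. With selenite it had 46.7, 50.8 and 59.9 CPM in knockout cells, against 40.0, 22.3 and 35.5 CPM in control cells. Every knockout library was above every control library of the same condition, by a narrower margin than for KLF5 or KLF9. The log2 fold change was 0.52 ± 0.18 (SE, n = 3 each) without selenite, 1.44-fold higher in knockout cells (edgeR adjusted p = 0.0323), and 0.62 ± 0.21 with it, 1.54-fold higher (edgeR adjusted p = 0.0148). These calls were not firm: they were lost with DESeq2 (adjusted p = 0.149 and 0.0608) and, without selenite, in fits that left out knockout replicate 1 (adjusted p = 0.119) or 2 (0.0914) or control replicate 1 (0.0592), 2 (0.140) or 3 (0.0597). With selenite the call was lost without knockout replicate 3 (0.0548) or control replicate 2 (0.0992). Without both shallow libraries, which left 1 knockout library with selenite, the value with selenite was 0.51. Without selenite KLF11 had between 7.21 and 8.83 CPM in knockout and between 4.0 and 7.26 CPM in control cells. With selenite it had between 5.92 and 8.20 CPM in knockout and between 4.08 and 8.31 CPM in control cells. The ranges of KLF11 overlapped in both conditions, and its log2 fold changes of 0.47 ± 0.43 and 0.19 ± 0.50 did not pass (edgeR adjusted p = 0.474 and 0.792). KLF10 lies at 8:102648784-102655725 and KLF11 at 2:10043550-10054836.

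KLF3 is a repressor that recruits CTBP proteins and has its best known roles in blood and fat cells. Without selenite it had 11.3, 8.11 and 10.3 CPM in knockout cells, against 20, 12.3 and 18.4 CPM in control cells. These ranges did not overlap, yet the log2 fold change of -0.76 ± 0.30 (SE, n = 3 each) missed the threshold (edgeR adjusted p = 0.0613). It passed without replicate 2 of the control cells without selenite (-0.94, adjusted p = 0.035), the lowest control library. With selenite KLF3 had 10.5, 11.5 and 7.99 CPM in knockout cells, against 10.6, 14.9 and 15.9 CPM in control cells, which overlapped, and a log2 fold change of -0.42 ± 0.35 (edgeR adjusted p = 0.337). KLF3 lies at 4:38664199-38701517.

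KLF6 is a widely expressed activator induced by tissue injury and described as a tumour suppressor. It had 18.6, 24.3 and 17.7 CPM in knockout cells, against 20.7, 17.4 and 15.6 CPM in control cells, without selenite, with overlapping ranges and a log2 fold change of 0.16 ± 0.25 (SE, n = 3 each; edgeR adjusted p = 0.715). With selenite it had 17.1, 13.1 and 11.98 CPM in knockout cells, against 27.8, 22.3 and 17.4 CPM in control cells. The highest knockout library lay just below the lowest control library, and the log2 fold change was -0.58 ± 0.29 (edgeR adjusted p = 0.101). The difference between the knockout's effect with and without selenite was -0.74 ± 0.38 on the log2 scale and did not pass (edgeR adjusted p = 0.226). KLF6 lies at 10:3775996-3785209.

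KLF16, a repressor that can bind SIN3A, had 5.31, 11.7 and 10.3 CPM in knockout cells, against 5.33, 7.26 and 4.97 CPM in control cells, without selenite. With selenite it had 9.87, 9.84 and 16.0 CPM in knockout cells, against 4.90, 9.55 and 4.53 CPM in control cells, and there the groups did not overlap. Its log2 fold changes of 0.60 ± 0.42 and 0.88 ± 0.45 (SE, n = 3 each) did not pass in the fit (edgeR adjusted p = 0.326 and 0.113). KLF16 lies at 19:1852399-1876536 in the most gene-dense surroundings of the members, with 69 genes within 1 Mb. Of the 39 tested neighbours, 26 fell and none rose in knockout cells without selenite, with a median log2 fold change of -0.67, while with selenite 3 fell and 1 rose, with a median of -0.05. KLF16's own value was thus above the median of its neighbourhood in both comparisons.

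KLF7, which promotes axon growth in mouse neurons, stood between 0.74 and 7.21 CPM in the 6 knockout libraries and between 1.42 and 4.25 CPM in the 6 control libraries. KLF13, described as an activator of CCL5 in T cells, stood at 3.32, 4.51 and 5.89 CPM in knockout and 3.33, 6.54 and 5.67 CPM in control cells without selenite. With selenite KLF13 had 3.95, 6.56 and 5.99 CPM in knockout cells, against 1.63, 3.18 and 2.27 CPM in control cells. These last ranges did not overlap, but they rest on 13 counts in knockout and 8 in control libraries, and the gene was not tested. KLF7 lies at 2:207074137-207173851 and KLF13 at 15:31326835-31435665.

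The rest of the family gives a comparison within the same DNA-binding class. Of 17 other KLF and SP genes listed, 7 had a row and 6 were tested. Without selenite 0 of these 6 passed (0 also at an unadjusted p under 0.05), and their median log2 fold change was -0.30. With selenite 1 of 6 passed (2 at an unadjusted p under 0.05), which is SP3, a widely expressed GC box factor, at 77.0, 60.7 and 65.9 CPM in knockout and 105, 76.4 and 89.1 CPM in control cells. SP3 fell by 0.38 on the log2 scale (SE 0.15, n = 3 each; edgeR adjusted p = 0.0392), although its ranges overlapped by 1 library. SP1, its close relative, had log2 fold changes of -0.23 ± 0.13 and -0.0050 ± 0.14, and SP2 and SP4 had -0.33 ± 0.22 and -0.089 ± 0.24 without and 0.21 ± 0.23 and -0.27 ± 0.27 with selenite. KLF12, a repressor that lies near KLF5 on chromosome 13, had -0.51 ± 0.43 without and -1.03 ± 0.51 with selenite (edgeR adjusted p = 0.437 and 0.0998). KLF15, a glucocorticoid-induced metabolic regulator, had -0.79 ± 0.44 and -0.12 ± 0.45 (edgeR adjusted p = 0.211 and 0.850). KLF14 had 25 counts in all and was not tested.

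**Figure D2:**
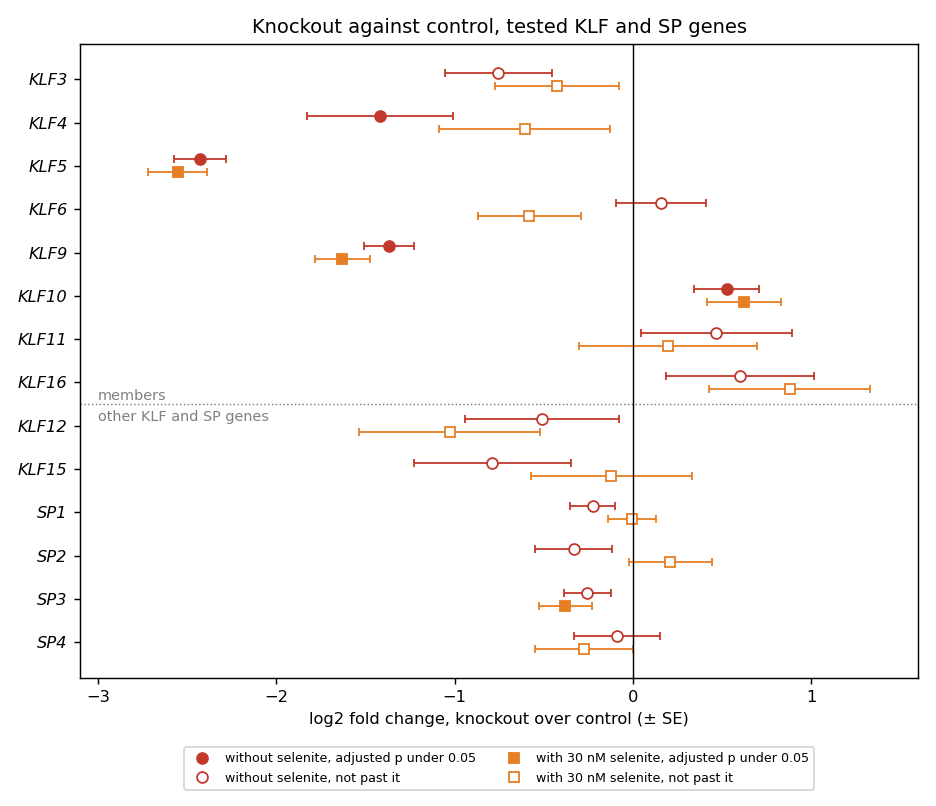
Log2 fold change of knockout over control (horizontal axis, bars are ± SE) for the 8 tested members and 6 other KLF and SP genes, without selenite (circles) and with 30 nM selenite (squares). Filled symbols passed an edgeR adjusted p of 0.05. KLF5 lies near -2.5 and KLF9 between -1.7 and -1.3 in both conditions, KLF10 lies to the right of 0 in both, and KLF4 is filled only for the libraries without selenite.

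Adding selenite asks whether selenium supply changes these genes. In control cells 0 of the 8 tested members passed, against a background of 0.0191% of all genes. In knockout cells 0 of 8 passed, although 20.5% of all genes did, 2149 in number, a count that varied with the library left out. The difference between the selenite responses of knockout and control cells passed for 0 of 8, where 7.45% of all genes passed. In each of these 3 comparisons 0 members had an unadjusted p under 0.05 by edgeR, and DESeq2 also called 0. A p that misses the threshold does not show equality, so the intervals are given.

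For KLF5, the log2 fold change of selenite over none was -0.19 in knockout cells (95% interval -0.58 to 0.20) and -0.063 in control cells (-0.31 to 0.19). For KLF9 it was -0.12 in knockout cells (-0.47 to 0.23) and 0.14 in control cells (-0.11 to 0.40). For KLF10 it was -0.11 in knockout cells (-0.50 to 0.28) and -0.21 in control cells (-0.62 to 0.19). The intervals of these better counted members lay between -0.62 and 0.40 in both genotypes, which is narrower than the knockout difference of KLF5 and KLF9 but not than that of KLF10. The intervals of the other tested members were wider, and the widest was that of KLF4 in knockout cells, -0.76 to 1.37.

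The fitted selenite responses of KLF3, KLF4, KLF6, KLF9 and KLF11 differed in sign between the genotypes, and no such difference passed. For KLF6, the 3 knockout libraries with selenite (17.1, 13.1 and 11.98 CPM) all lay below the 3 without (18.6, 24.3 and 17.7 CPM), while the control libraries overlapped (27.8, 22.3 and 17.4 CPM with selenite, 20.7, 17.4 and 15.6 CPM without). Its log2 fold change of selenite over none was -0.42 (-1.004 to 0.17) in knockout and 0.32 (-0.19 to 0.83) in control cells, and neither passed. The control value was 0.086 with all libraries thinned to 1 depth and between 0.12 and 0.49 with 1 library left out. KLF13, untested, had 3.18 CPM or less in the control libraries with selenite and 3.33 CPM or more in those without.

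**Figure D3:**
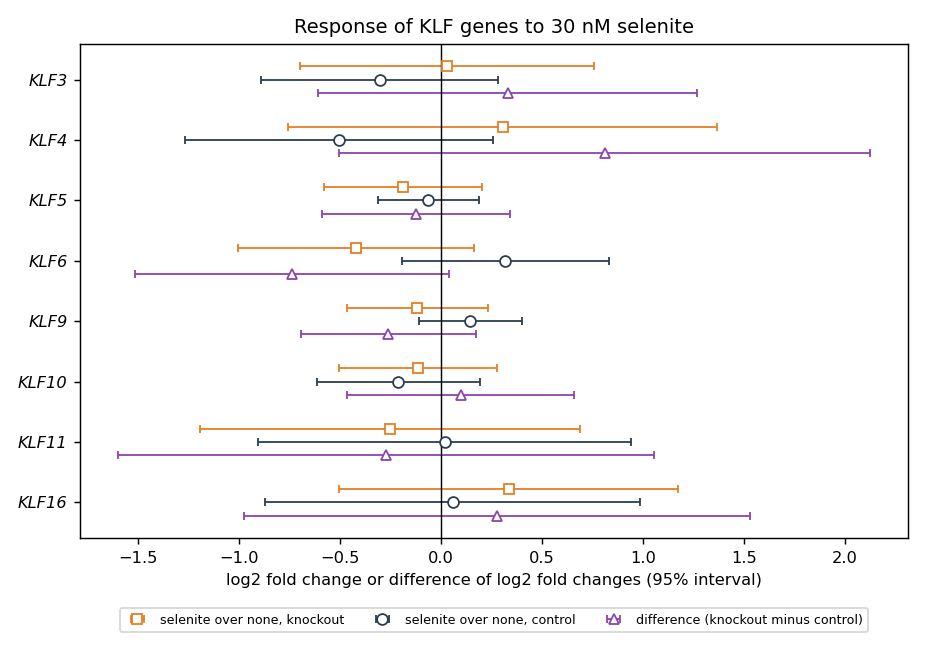
Log2 fold change of selenite over none in knockout cells (squares) and in control cells (circles), and the difference of these responses, knockout minus control (triangles), for the 8 tested KLF genes, with 95% intervals (horizontal bars). Every interval includes 0, and those of KLF5, KLF9 and KLF10 are the narrowest.

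The means of all 4 groups are given here for KLF5, KLF9 and KLF10, the members called in both comparisons. KLF5 averaged 30.8 and 33.4 CPM in knockout cells with and without selenite and 174 and 181 CPM in control cells with and without it, and groups of the same genotype differed by less than the larger of their SDs. KLF9 averaged 39.3 ± 4.8 and 42.7 ± 5.2 CPM in knockout cells with and without selenite, and 122 ± 5.2 and 110 ± 7.9 CPM in control cells with and without it. KLF10 averaged 52.5 ± 6.7 and 55.4 ± 6.6 CPM in knockout cells with and without selenite, and 32.6 ± 9.2 and 38.4 ± 3.7 CPM in control cells with and without it (SD, n = 3 each). The 2 knockout groups of KLF9 and of KLF10, and the 2 control groups of KLF10, differed by less than the larger of their SDs, while the 2 control groups of KLF9 differed by more.

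The genes whose profile over the 12 libraries was most like that of a member were found as the smallest root-mean-square difference of log2 CPM, each gene centred on its own mean, among 9158 genes of at least 10 CPM. This was done for the 3 members whose group means spanned at least 1 log2 unit. For KLF5 they were PRSS23, a secreted protease (0.215), CAV1, the main protein of caveolae (0.215), and THBS1, a matrix glycoprotein (0.237), where the median over all candidates was 1.24. For KLF9 they were MYO1E, an unconventional myosin (0.106), ANO4, a membrane protein of the anoctamin family (0.1498), and TFAP2C, a transcription factor of the AP-2 family (0.151), where the median was 0.780. For KLF4 the nearest was SORBS3, a focal adhesion adaptor (0.388), followed by CTAG1A and CTAG1B (0.417 each), where the median was 0.789. CTAG1A and CTAG1B are near-identical copies with equal values here and are uncertain as separate genes. KLF4 was sparsely counted, so counting noise weighs more in its profile than in those of KLF5 and KLF9. All 12 libraries share the split by genotype, and the likeness is a description. Among the members themselves, KLF5 and KLF9 differed by 0.542 on this measure. The smallest difference of a pair was 0.370, for KLF10 and KLF11. Their group means spanned only 0.77 and 0.43 log2 units, under the 1 asked for above, and genes that vary little differ little on this measure.

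The proteins that KLF factors recruit and those that turn them over formed a list of 14 tested genes. Without selenite 1 fell and 0 rose, and with selenite 3 fell and 3 rose, with medians of -0.02 and 0.01. KAT2B, an acetyltransferase that some KLF proteins recruit, fell in both comparisons, with log2 fold changes of -0.95 ± 0.29 and -1.04 ± 0.32 (SE, n = 3 each; edgeR adjusted p = 0.0126 and 0.00838). With selenite the corepressor CTBP1 rose (0.74 ± 0.17) and so did SAP30 (1.06 ± 0.42), a SIN3A complex subunit, while the deacetylase HDAC2 fell (-0.70 ± 0.10). The share past the threshold without selenite was below the background of 23.9%, and with selenite, 6 of 14, it was near the background of 42.9%.

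Of 7 tested ligands, receptors and SMADs of the TGF-beta pathway, 1 rose and 0 fell without selenite, and 1 rose and 2 fell with it, that is 1 and 3 of 7 against 23.9% and 42.9% of all genes, below and near the background. The ligand TGFB1 rose in both, by log2 fold changes of 0.48 ± 0.14 and 1.26 ± 0.15 (edgeR adjusted p = 0.0101 without selenite), and the signal transducers SMAD2 (-0.69 ± 0.17) and SMAD4 (-0.45 ± 0.15) fell with selenite. Of 12 tested TGF-beta response genes, 7 rose and 1 fell in each comparison, 8 of 12 against 23.9% of all genes without and 42.9% with selenite, with medians of 0.80 and 0.88. ID3, which blocks DNA binding by basic helix-loop-helix factors, averaged 52.2 CPM in knockout and 3.08 CPM in control cells when no selenite was added, and 84.3 and 2.43 CPM with it. TGFBI, a matrix protein, rose by log2 fold changes of 2.50 ± 0.09 and 2.95 ± 0.10. PMEPA1, a feedback inhibitor of the pathway, rose in both comparisons, by 2.10 ± 0.29 with selenite. CCN2, a matricellular growth factor, fell in both, by 2.12 without selenite (SE 0.17). KLF10 stood at 0.52 and 0.62, with calls that were lost in some fits, and KLF11, at 0.47 and 0.19, did not pass. A link of either to these genes was not tested.

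Of 9 tested glucocorticoid response genes, 3 rose and 2 fell in each comparison, 5 of 9 against 23.9% of all genes without and 42.9% with selenite, the second near the background, with medians of 0.05 and 0.60. ERRFI1, an inhibitor of the EGF receptor, rose by 1.39 ± 0.10 and 1.40 ± 0.10 on the log2 scale. FKBP5, a chaperone of the glucocorticoid receptor, rose by 1.31 ± 0.20 without and 0.70 ± 0.22 with selenite. SGK1, a kinase, rose by 0.80 ± 0.14 without and 0.88 ± 0.15 with selenite. MT2A, a metallothionein, had -1.09 ± 0.28 and -1.32 ± 0.30, CEBPD, a transcription factor, fell without selenite (-0.95 ± 0.29), and NR3C1, the glucocorticoid receptor itself, fell with it (-0.75 ± 0.18). KLF9 was lower in both comparisons, as MT2A was, while ERRFI1, FKBP5 and SGK1 were higher.

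Of 13 tested immediate early genes, 3 rose and 1 fell without selenite, and 6 rose and 1 fell with it. These 4 and 7 of 13 were near the 23.9% and 42.9% of all genes that passed in either direction. Of all genes 11.8% were higher without and 21.3% with selenite. MYC rose by 2.88 ± 0.20 and 2.96 ± 0.21 on the log2 scale and EGR1 by 1.85 ± 0.22 and 2.46 ± 0.24, both transcription factors of the growth factor response. IER3, a stress-induced survival protein, rose by 0.58 ± 0.15 without and 0.85 ± 0.16 with selenite. SRF, the serum response factor, rose by 1.03 ± 0.31 with selenite and did not pass without it. NR4A1, an orphan nuclear receptor, had -2.47 ± 0.18 and -1.96 ± 0.19. The members that are themselves early response genes were mixed: KLF10 rose, KLF4 fell without selenite, and KLF6 passed in neither comparison.

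Genes reported elsewhere as targets of KLF factors were described from a list of 22, of which 13 were tested. Without selenite 5 rose and 3 fell, and with selenite 5 rose and 4 fell, with medians of 0.09 and -0.09. These were 8 and 9 of 13, where 23.9% and 42.9% of all genes passed. CDKN1A, the cyclin-dependent kinase inhibitor p21 and a reported target of KLF4 and KLF6, rose by 1.07 ± 0.13 and 1.83 ± 0.14 on the log2 scale. ODC1, the first enzyme of polyamine synthesis, rose in both comparisons, by 0.93 ± 0.17 without selenite. ENG, a TGF-beta co-receptor and reported KLF6 target, also rose in both, by 1.20 ± 0.13 with selenite. GAP43, a growth cone protein, rose and FGFBP1, a carrier of fibroblast growth factors, fell, on few counts. GAP43 had 153 counts in knockout and 7 in control libraries without selenite, and 93 in knockout and 3 in control libraries with it, a ratio of 39.9 per library total (95% counting interval 13.2 to 197). FGFBP1 had 5 counts in knockout and 59 in control libraries without selenite, and 3 in knockout and 51 in control libraries with it, a ratio of 0.0757 (0.0151 to 0.234). Such intervals cover counting error only.

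**Figure D4:**
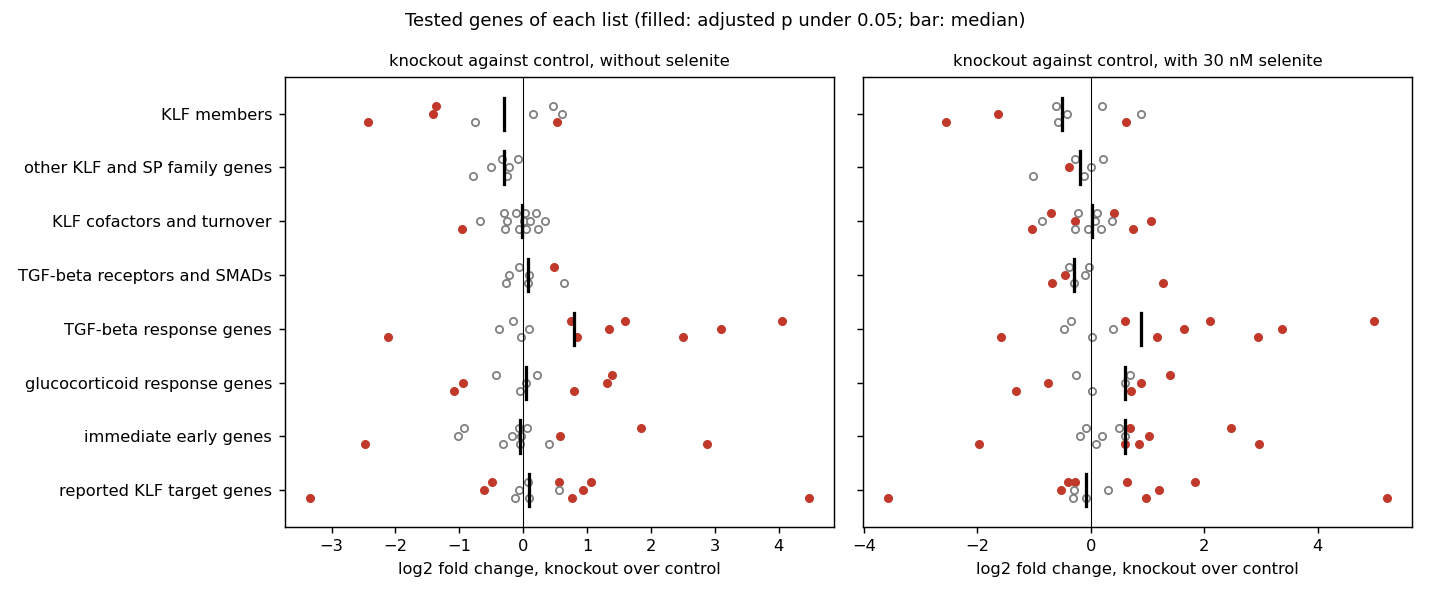
Log2 fold change of knockout over control (horizontal axes) for every tested gene of the KLF members and of 7 related lists, without selenite (left) and with 30 nM selenite (right). Filled points passed an edgeR adjusted p of 0.05, and the vertical bar in each row is the list's median. The TGF-beta response genes have the medians farthest to the right, 0.80 and 0.88, and the KLF members have medians of -0.30 and -0.50.

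Markers of the cell line moved with the same comparisons. Without selenite the summed level of the 8 melanoma markers was 1102 to 1223 CPM in knockout and 2018 to 2083 CPM in control cells, and with selenite 1531 to 1785 CPM in knockout and 1918 to 2151 CPM in control cells. Of 7 tested, 5 fell and 0 rose without selenite, and 3 fell and 0 rose with it. Of all genes, 23.9% and 42.9% passed in either direction, and 21.6% fell with selenite. The 3 of 7 with selenite were thus at the background for either direction and above it for falls alone. CSPG4, a surface proteoglycan, had -1.33 ± 0.10 and -0.48 ± 0.10, MITF, the melanocyte master regulator, -1.32 ± 0.20 and -1.21 ± 0.21, S100B, a calcium-binding protein, -1.01 ± 0.18 and -1.34 ± 0.20, and SOX10, a neural crest factor, -0.89 ± 0.11 without selenite. Of 16 markers of other cell types, 8 had a row and 4 were tested, of which 2 fell without selenite (KRT14 and LYZ) and 1 with it (LYZ), and 0 rose in either. Without selenite their summed level was 40.5 to 51.4 CPM in knockout and 68.7 to 80.9 CPM in control cells, and with selenite 49.9 to 70.5 CPM in knockout and 67.0 to 72.5 CPM in control cells. EPCAM and KRT5, which mark epithelia where KLF5 is abundant, had no row, and PTPRC, PECAM1, ALB and HBB had none either. Among those with a row, CD68 stood at 17.7 to 30.5 CPM and LYZ at 2.63 to 24.8 CPM over all libraries. The part of these marker shifts in the levels of KLF5, KLF9, KLF4 and KLF10 was not tested.

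Leaving out each library in turn and changing 1 processing choice at a time showed which of these calls stood. KLF5 and KLF9 kept their direction and passed the threshold in all 12 fits that left out a library and in all 9 other settings, in both comparisons. Fits that left out a library of a group not compared bear on a comparison only through the shared spread, scaling and filter. Over the left-out fits, KLF5 ranged between -2.50 and -2.35 without and between -2.73 and -2.37 with selenite, and KLF9 between -1.46 and -1.31 without and between -1.68 and -1.55 with selenite. Without both shallow libraries, which left 1 knockout library with selenite, KLF5 was at -2.77 and KLF9 at -1.60 with selenite. The calls of KLF4 and KLF10 each failed in at least 1 such fit.

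**Figure D5:**
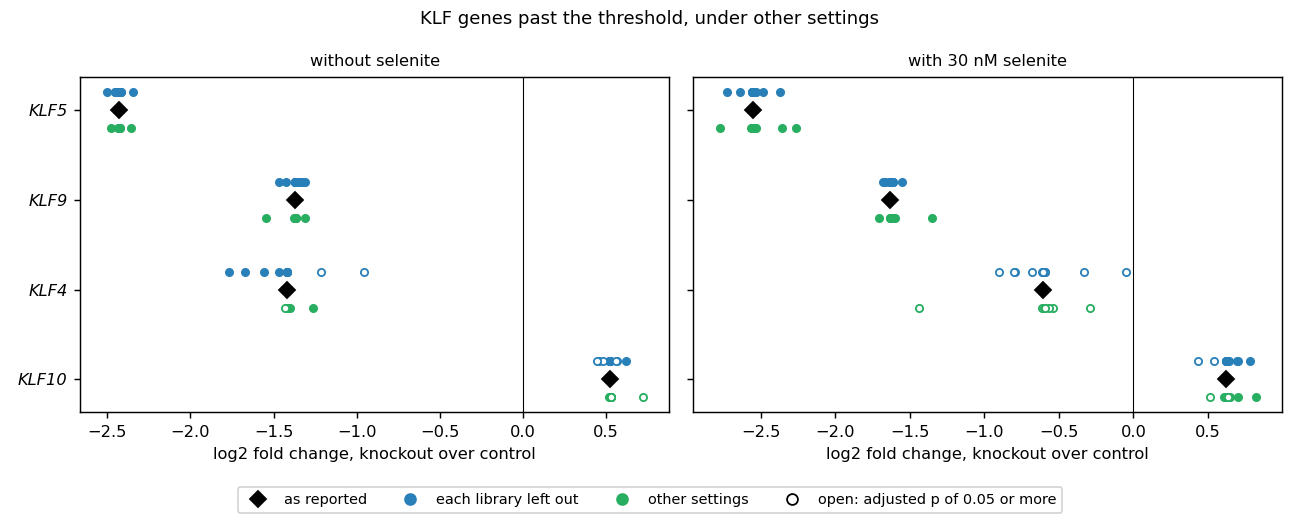
Log2 fold change of knockout over control (horizontal axes) for KLF5, KLF9, KLF4 and KLF10 as reported (diamonds), with each of the 12 libraries left out (upper points) and under other settings (lower points), without selenite (left) and with 30 nM selenite (right). Open points had an adjusted p of 0.05 or more. All points of KLF5 and KLF9 are filled, while KLF4 and KLF10 have open points.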

How the data were processed

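The authors deposited whole-number footprint counts per gene and a normalized signal per gene. The deposited signal was checked to be the counts divided by 1 factor per library, and was used only for its factors. Trim Galore 0.6.10, STAR 2.7.9a, DESeq2 and the build GRCh38 are named, per the submitters' processing notes. The counting tool, the annotation and the use of the primer's molecular identifiers are not given in the sources used here. If identifiers were not used, amplified copies raise counts.

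Counts were tested with edgeR 4.0.16 in R 4.3.3 (TMM, robust quasi-likelihood fit, filterByExpr with a minimum count of 10 and a minimum total of 15, 1 coefficient per group, all 12 libraries). P-values were adjusted by Benjamini-Hochberg over all 10467 genes with a threshold of 0.05. The standard error is the log2 fold change divided by the root of F. The steps were tested on simulated data. DESeq2 1.42.0 and other settings gave alternatives. The labels give no pairing, so the replicate numbers were not taken as pairs. Correlations of same-numbered libraries ran between -0.030 and 0.276, which does not settle whether they are pairs. No replicate pair agreed within sampling noise (chi-square per degree of freedom 1.68 to 4.36).

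The members and the 9 gene lists were chosen with earlier results of these data known. The genes named are FTSJ1, the members, other KLF and SP genes, up to 4 called genes of each list per knockout comparison by size, and the 3 likest genes of each member with a span of 1 or more. Symbols were matched to RefSeq for 12977 of 13074 genes. The values of 1 gene of the TGF-beta response list that this rule would name are not reported here.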

Additional observations from a re-analysis of the deposited data

How the results depend on the processing

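In both comparisons of knockout with control the calls of KLF5 and KLF9 held in all settings. The number of members past the threshold without selenite, 4, was 2 with DESeq2, 2 with every library thinned to 520989 counts (KLF3, KLF4, KLF11 and KLF16 then fell below the filter) 2 to 4 with a library left out (2 without control replicate 3), and 5 with the density trend removed and with only the groups compared. With selenite it was 2 to 3. For the selenite comparisons and the interaction it was 0 in all fits. With the replicate block the counts were 4 and 3, and no member's call changed. Over all genes, 2501 passed without selenite, against 1626 with DESeq2 and 1357 thinned. With selenite 4494 passed. The fit without both shallow libraries left 1 library of knockout cells with selenite, so no count over all genes is given for it. The selenite response in knockout cells, 2149, was 1382 with DESeq2, 1376 thinned and 1220 with the trend on gene density removed. It was 802 to 2758 with a library left out (802 without replicate 1 of knockout cells without selenite, 1044 and 1226 without replicates 2 and 3 of those with it). The interaction, 780, was 1268 with the block, 384 thinned, 351 without the density trend and 123 to 1707 with a library left out. Selenite in control cells, 2, was 0 to 5. The cause was not tested.

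KLF4 without selenite lost its call with DESeq2 (adjusted p = 0.0657), without knockout replicate 3 (0.101) and without control replicate 3 (0.0646). KLF10 without selenite lost it with DESeq2, thinned (0.0516) and in 5 of 12 fits with a library left out. With selenite KLF10 lost it in 2 of 9 other settings, DESeq2 among them, and in 2 of 12 fits with a library left out. KLF3 without selenite gained one without the density trend (-0.78), with only the groups compared (-0.76) and in 1 of 12. Signs turned only for values that passed in no setting. For selenite in control cells KLF5 was 0.0043 thinned. In knockout cells KLF4 was -0.52 without both shallow libraries, KLF5 0.13 thinned, and KLF5, KLF9 and KLF10 0.025, 0.095 and 0.067 without the density trend. In the interaction KLF4 was -0.023 and KLF10 -0.019 without both shallow libraries, KLF5 0.12 and KLF10 -0.017 thinned, and KLF5 0.095 and KLF16 -0.061 without the density trend. With a library left out, KLF11 in knockout against control with selenite ran between -0.0056 and 0.65. For selenite in control cells KLF5 ran between -0.12 and 0.012, KLF11 between -0.42 and 0.23 and KLF16 between -0.30 and 0.26, and in knockout cells KLF3 between -0.061 and 0.15, KLF4 between -0.16 and 0.87 and KLF5 between -0.36 and 0.00058. In the interaction KLF5 ran between -0.30 and 0.064, KLF10 between -0.092 and 0.26, KLF11 between -0.49 and 0.19 and KLF16 between -0.0049 and 0.64. The authors' own factors, an alternative chosen after seeing the data, changed no member's call. Footprint density per coding length was not run, since no coding lengths were at hand, and levels of different genes are not compared. Depth limits KLF4, KLF7, KLF11, KLF13 and KLF16.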
